A study of Homo sapiens with 24 samples.

Results

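The 33 genes described here encode proteins that build, duplicate and organise the centrosome, from the kinase PLK4, which starts a new centriole, to the scaffolds of the pericentriolar material, the appendages, the satellites, the augmin complex and the midbody protein CEP55. They were taken from the 29744 genes of the deposited tables by name. All 33 were found, and all 33 passed the filter on low counts in both cell lines.

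RNA was profiled by TAGseq, which sequences short tags from the 3′ end of polyadenylated transcripts, in HCC1806 and MDA-MB-231, established human lines of triple-negative breast cancer. Each line was represented by its aneuploid parental population, used as the control, and by 3 populations whose genome had doubled after cell fusion, after mitotic slippage or after failed cytokinesis. The doubled cells had been isolated by flow sorting and allowed to expand, and all 8 groups, each with 3 libraries, were grown for 48 hours after plating with no further treatment. As far as the labels tell, each route was represented by 1 derived population per line, so an effect of the route and a property of that one population cannot be told apart. The submitters call the replicates biological, but the labels name no separate derivations, so the tests below are taken to measure the spread between libraries of one population.

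A centriole is a short barrel of microtubules that templates the centrosome and, in resting cells, the cilium. Before division each existing centriole forms a single new one: CEP192, CEP152 and CEP63 form a platform that recruits PLK4, and PLK4 with STIL and SASS6 lays down the cartwheel from which the wall grows. Genome doubling by fusion, slippage or failed cytokinesis brings together more than the normal number of centrosomes in a cell, and lines that proliferate afterwards are known to lose or cluster the extra ones.

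The sequences upstream of 5 members called against a control are shown, so that the motifs counted next can be read: PLK4 and PCNT, which rose in fused MDA-MB-231 cells, TUBG1 and SASS6, which fell there, and CEP152, which fell in fused HCC1806 cells. Each runs from 250 bases before to 50 bases after the RefSeq start on the gene's own strand (GRCh38.p14), at chr4:127880643-127880942 on the plus strand for PLK4, chr1:100132881-100133180 on the minus strand for SASS6, chr15:48811020-48811319 on the minus strand for CEP152, chr21:46323906-46324205 on the plus strand for PCNT and chr17:42609433-42609732 on the plus strand for TUBG1. Capitals mark TTTGAA (the cell cycle homology region), CCAAT and the E2F forms TTTCCCGC, TTTGGCGC, TTTCGCGC and TTTGCCGC, searched on both strands.
PLK4: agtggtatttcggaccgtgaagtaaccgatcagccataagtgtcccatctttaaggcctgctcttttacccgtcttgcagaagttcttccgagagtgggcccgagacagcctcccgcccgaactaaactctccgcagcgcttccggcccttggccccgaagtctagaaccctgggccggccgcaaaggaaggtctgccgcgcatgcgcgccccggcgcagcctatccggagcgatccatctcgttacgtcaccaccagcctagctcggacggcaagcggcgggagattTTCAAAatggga
SASS6: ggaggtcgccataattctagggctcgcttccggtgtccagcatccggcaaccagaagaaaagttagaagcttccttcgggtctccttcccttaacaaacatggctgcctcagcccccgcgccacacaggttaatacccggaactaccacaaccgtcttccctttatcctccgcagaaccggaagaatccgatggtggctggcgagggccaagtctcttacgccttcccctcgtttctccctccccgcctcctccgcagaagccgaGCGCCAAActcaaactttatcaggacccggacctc
CEP152: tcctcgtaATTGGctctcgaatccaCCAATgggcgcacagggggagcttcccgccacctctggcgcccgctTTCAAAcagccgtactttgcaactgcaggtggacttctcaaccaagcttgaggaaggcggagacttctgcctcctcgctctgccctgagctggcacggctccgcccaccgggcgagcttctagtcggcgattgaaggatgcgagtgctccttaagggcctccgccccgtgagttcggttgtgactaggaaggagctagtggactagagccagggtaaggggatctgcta
PCNT: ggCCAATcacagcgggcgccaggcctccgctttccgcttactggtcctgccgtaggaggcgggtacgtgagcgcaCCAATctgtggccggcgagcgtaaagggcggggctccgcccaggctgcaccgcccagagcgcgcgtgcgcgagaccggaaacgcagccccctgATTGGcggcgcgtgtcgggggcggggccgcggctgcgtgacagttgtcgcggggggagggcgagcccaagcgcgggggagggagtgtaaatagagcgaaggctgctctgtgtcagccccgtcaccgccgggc
TUBG1: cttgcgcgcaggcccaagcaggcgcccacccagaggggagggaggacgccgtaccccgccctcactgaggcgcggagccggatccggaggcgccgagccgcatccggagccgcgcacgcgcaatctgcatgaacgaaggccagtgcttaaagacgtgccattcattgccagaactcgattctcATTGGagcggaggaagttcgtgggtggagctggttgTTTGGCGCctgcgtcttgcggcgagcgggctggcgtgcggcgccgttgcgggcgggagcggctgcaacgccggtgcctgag
Windows were found for 28 of the members, all but CENPJ, SPICE1, CETN3, CEP250 and PCM1. TTTGAA stood in 9 of them, against 15.4% of all 27305 promoters of the same length, CCAAT stood in 11, against 35.7%, and an E2F form stood in 6, against 3.33%. The members with an E2F form were STIL, SASS6, CEP192, CEP63, TUBG1 and HAUS8. Of the 8 members called against a control, 7 had a window. Those of PLK4 and CEP290 held 1 TTTGAA each, that of CEP152 held 1 TTTGAA and 2 CCAAT boxes, and that of PCNT held 3 CCAAT boxes. The window of SASS6 held 1 TTTGGCGC, that of TUBG1 held 1 TTTGGCGC and 1 CCAAT box, and that of AKAP9 held none of the motifs.

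Library totals ran from 2455707 to 4030297 estimated counts. Keratin 5 (KRT5), a basal epithelial marker, never exceeded 1 count in an MDA-MB-231 library, and vimentin (VIM), a mesenchymal marker, never exceeded 7 counts in an HCC1806 library, so both markers matched the labelled lines. Summed markers of other cell types reached at most 4.06 CPM (counts scaled to library size) for 7 immune genes, 6.40 CPM for 3 endothelial genes and 6.67 CPM for 6 fibroblast genes. The 8 basal epithelial genes that included KRT5 summed on average to 2452 CPM in the HCC1806 control and 126 CPM in the MDA-MB-231 control. The 6 mesenchymal genes that included VIM separated the lines less, at 4716 CPM in the MDA-MB-231 control and 1309 CPM in the HCC1806 control. MDA-MB-231 slippage library 3 and cytokinesis failure library 1 differed more from their replicates than other libraries did, at 2.26 to 2.45 for the chi-square of a pair divided by its degrees of freedom, against 1.30 to 1.87 for all other replicate pairs. RNA was brought to equal concentration before library preparation, so a level below is a share of a library's RNA and carries no information on RNA per cell.

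Centrosome transcripts were of moderate to low abundance. On the deposited scale per transcript length (TPM), gamma-tubulin (TUBG1), centrin 2 (CETN2) and CEP55 had the highest levels of the 33 in both controls. TUBG1 stood at 56.6 ± 3.70 TPM (SD, n = 3) in HCC1806 and 113 ± 3.09 TPM in MDA-MB-231, and CETN2 at 83.1 ± 2.12 TPM and 64.8 ± 1.56 TPM. CEP192, the platform protein that recruits the others to the mother centriole, had the lowest TPM in both, at 0.93 ± 0.31 and 1.13 ± 0.12. Division by transcript length adds an error of its own for tags that come from transcript ends, so TPM is used here for rank only, and all comparisons between groups use scaled counts.

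Summed over the 33 genes, the level was 1820 ± 18.4 CPM (SD, n = 3) in the HCC1806 control, 1734 ± 8.56 in the fusion population, 1845 ± 13.1 after slippage and 1816 ± 20.7 after failed cytokinesis. In MDA-MB-231 it was 2254 ± 51.5 in the control, 2189 ± 75.0 after fusion, 2135 ± 42.5 after slippage and 2225 ± 83.9 after failed cytokinesis. The fusion libraries of HCC1806 lay between 1724 and 1740 CPM, below every other library of that line, and the groups of MDA-MB-231 lay closer to each other, with only the control (2219 to 2313) clear of slippage (2098 to 2181). These sums are given as a description, with no test.

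Few members were called changed against their control. A gene is called changed where its adjusted p, from edgeR's quasi-likelihood test over all genes that passed the filter (Benjamini-Hochberg), is below 0.05, and a difference is a log2 fold change ± standard error. Of 198 comparisons of a member with its control (33 genes, 6 doubled populations), 9 were called, and 25 of the 33 genes were called in none. Of all tested genes, 3.33% (HCC1806 slippage) to 17.4% (MDA-MB-231 fusion) were called in these comparisons, and no difference from the members was tested. For 24 members the 95% interval of the fold change lay within 1.5-fold of no change in all 6 comparisons, and for all 33 it lay within 2-fold in all 6. Intervals of other genes were not counted, so these numbers are not particular to the members. The 9 members with an interval that reached past 1.5-fold in at least 1 comparison were CENPJ, CEP152, CEP192, CEP290, CETN3, HAUS5, PLK4, POC5 and SPICE1. An interval can reach past it through its width or through the size of the change itself.

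Fusion populations held 8 of the 9 calls. In HCC1806, 2 members fell after fusion (CEP152, AKAP9), where 10.9% of all 11467 tested genes were called and 5.55% were called lower, 0 changed after slippage (3.33% of all genes), and 1 fell after failed cytokinesis (AKAP9, where 17% of all genes were called and 8.63% were lower). In MDA-MB-231, 3 members rose (PLK4, PCNT, PCM1) and 3 fell (CEP290, TUBG1, SASS6) after fusion, where 17.4% of all 11424 tested genes were called, 9.34% higher and 8.11% lower. Neither slippage (6.18% of all genes) nor failed cytokinesis (4.64%) gave a call there. Without both noisier libraries, 2 members (CENPJ and PCNT) were called there after failed cytokinesis and 0 after slippage. At an unadjusted p under 0.05, 4 members passed after slippage in HCC1806 (14.4% of all genes), 6 after slippage in MDA-MB-231 (18.8%) and 6 after failed cytokinesis in MDA-MB-231 (16.9%), and DESeq2 also called 0 in each of these.

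The 6 calls among 33 members after fusion in MDA-MB-231 are close to the share of all genes called there, and no difference between members and other genes was tested. The median log2 fold change over the 33 members was -0.07 after fusion, 0.02 after slippage and 0.01 after failed cytokinesis in HCC1806, and -0.04, -0.08 and -0.04 in MDA-MB-231. Over all tested genes the median lay between -0.0031 and 0.0018 in the same 6 comparisons. After fusion in HCC1806, 23 of the 33 values were negative, and after slippage in MDA-MB-231, 24 were.

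**Figure D1:**
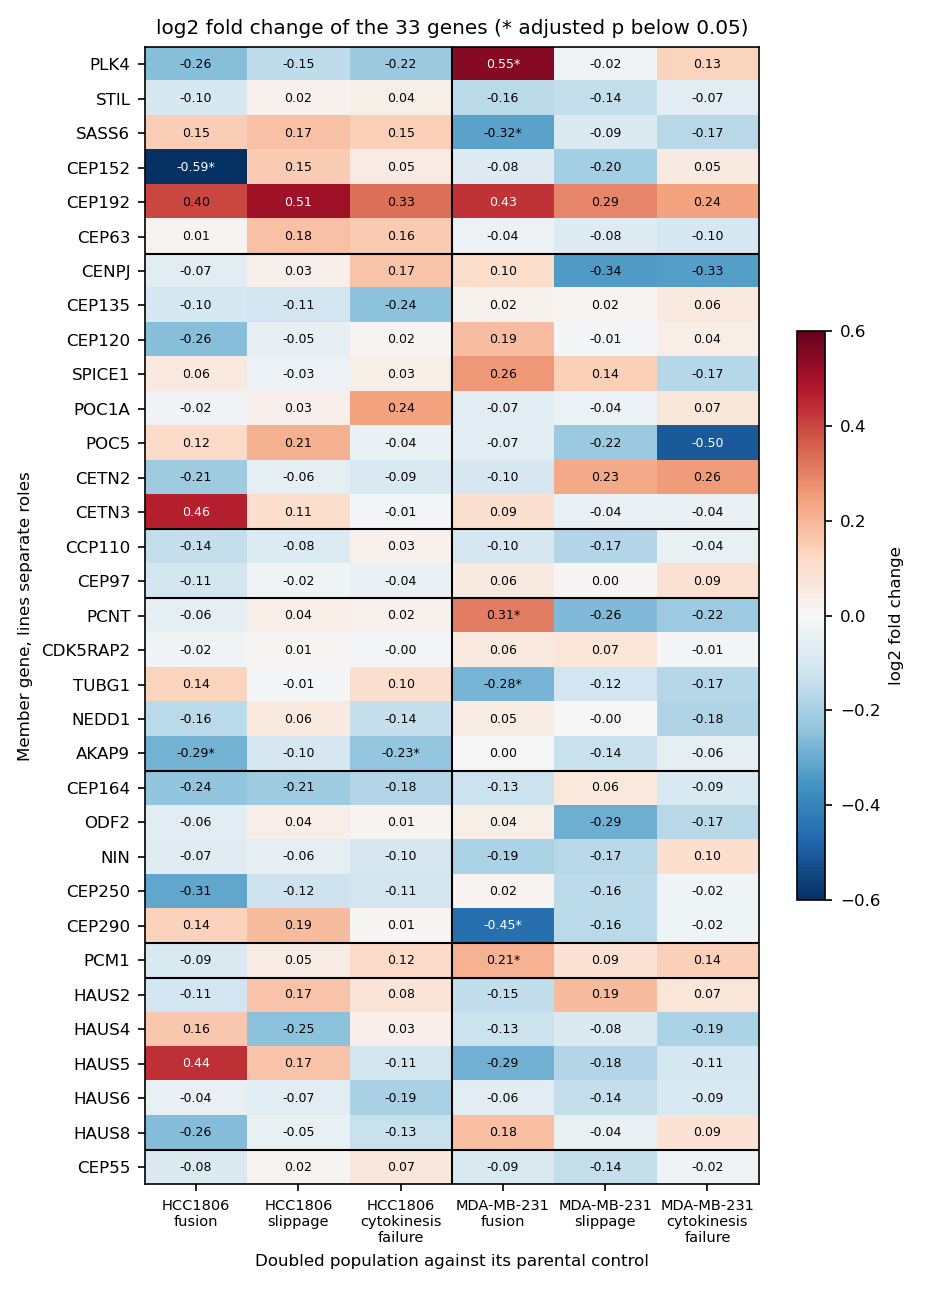
Log2 fold change of each of the 33 genes (rows, ordered by role, horizontal lines between roles) in each doubled population against its parental control (columns, 3 libraries per group), coloured from -0.6 (blue) to 0.6 (red), with an asterisk where the adjusted p is below 0.05. The 9 asterisks stand in 3 of the 6 columns, 6 of them in the MDA-MB-231 fusion column. CEP192 is positive and HAUS6 negative in every column, without an asterisk in any.

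Among the genes that initiate a new centriole, PLK4 itself rose in fused MDA-MB-231 cells. Its level there was 16.0, 15.2 and 16.5 CPM in the control libraries, 21.3, 25.6 and 22.8 CPM after fusion, 15.1, 17.4 and 14.4 CPM after slippage and 17.3, 17.1 and 17.9 CPM after failed cytokinesis. The 3 fusion libraries lay above all 9 other libraries of the line. The increase over the control was 0.55 ± 0.15 on the log2 scale (46.0%, adjusted p = 0.00694), that over slippage 0.57 ± 0.15 (adjusted p = 0.00493) and that over failed cytokinesis 0.41 ± 0.15 (adjusted p = 0.0333). The call against the control was lost with DESeq2 (adjusted p = 0.052) and without fusion library 2 (0.0564), while the call against slippage held under every alternative run. The call against failed cytokinesis was lost with DESeq2 (0.147), with no filter on low counts (0.0634), and without fusion library 2 or 3 or any 1 of the cytokinesis failure libraries (0.0577 to 0.16).

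In HCC1806, PLK4 stood at 23.1, 17.4 and 22.4 CPM in the control and at 18.8, 14.9 and 19.4 CPM after fusion, with overlapping libraries. The difference of -0.26 ± 0.16 did not pass the test (adjusted p = 0.335), and its 95% interval ran from -0.57 to 0.05. The fusion effect nevertheless differed between the lines, by -0.81 ± 0.21 (HCC1806 minus MDA-MB-231, adjusted p = 0.00575), a call that held under every alternative run. After slippage and failed cytokinesis the HCC1806 values were -0.15 ± 0.15 and -0.22 ± 0.15, neither of which passed.

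CEP152, which hands PLK4 to the mother centriole, fell in fused HCC1806 cells. The control libraries stood at 35.6, 32.7 and 34.2 CPM, the fusion libraries at 24, 24.9 and 19.1, the slippage libraries at 36.5, 39.2 and 38.5, and the cytokinesis failure libraries at 36.6, 41.7 and 28.5 CPM. Every fusion library was below every other library of the line. CEP152 fell by 33.6% against the control (log2 fold change -0.59 ± 0.13, adjusted p = 0.000757), and the log2 fold change was -0.74 ± 0.13 against slippage (adjusted p = 1.37e-05) and -0.64 ± 0.13 against failed cytokinesis (adjusted p = 8.43e-05). All 3 calls held under every alternative run. In MDA-MB-231, CEP152 gave -0.08 after fusion, -0.20 after slippage and 0.05 after failed cytokinesis without a call. The fusion effects differed between the lines by -0.52 ± 0.18, just short of a call (adjusted p = 0.051), and this difference was called with RLE size factors, with no filter on low counts, with the replicate block, without both noisier libraries, and without HCC1806 fusion library 2 or MDA-MB-231 control library 1.

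SASS6, the structural core of the cartwheel, fell in fused MDA-MB-231 cells from 54.8, 47.8 and 57.9 CPM to 43.3, 45.8 and 40.1 CPM. The groups did not overlap, and the change was -0.32 ± 0.10 (adjusted p = 0.0271). It was lost with DESeq2 (adjusted p = 0.114) and when control library 1 or 3 or fusion library 1 or 3 was left out (0.0692 to 0.161). In HCC1806 the 3 values of SASS6 lay between 0.15 and 0.17 and none passed, and the fusion effects differed between the lines by 0.46 ± 0.15 (adjusted p = 0.028), a call lost with DESeq2 (0.0929) and without HCC1806 control library 3 or fusion library 3 or, in MDA-MB-231, control library 1 or 3 or fusion library 1 or 3 (0.0516 to 0.147).

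STIL, the partner of PLK4 and SASS6, was called in none of the 6 comparisons, with values from -0.16 to 0.04. CEP63, which works with CEP152, was also called in none, from -0.10 to 0.18. CEP192 was the only member of the 33 with a positive value in all 6 comparisons, from 0.24 to 0.51, and none of the 6 passed the test. The augmin gene HAUS6 was the only member negative in all 6, from -0.19 to -0.04, also without a call. Levels of CEP192 were among the lowest of the set, with control libraries at 6.84, 6.95 and 10.8 CPM in HCC1806 and 9.64, 9.85 and 6.46 CPM in MDA-MB-231. The widest interval of CEP192 ran from 0.08 to 0.93 (HCC1806 slippage, adjusted p = 0.226).

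**Figure D2:**
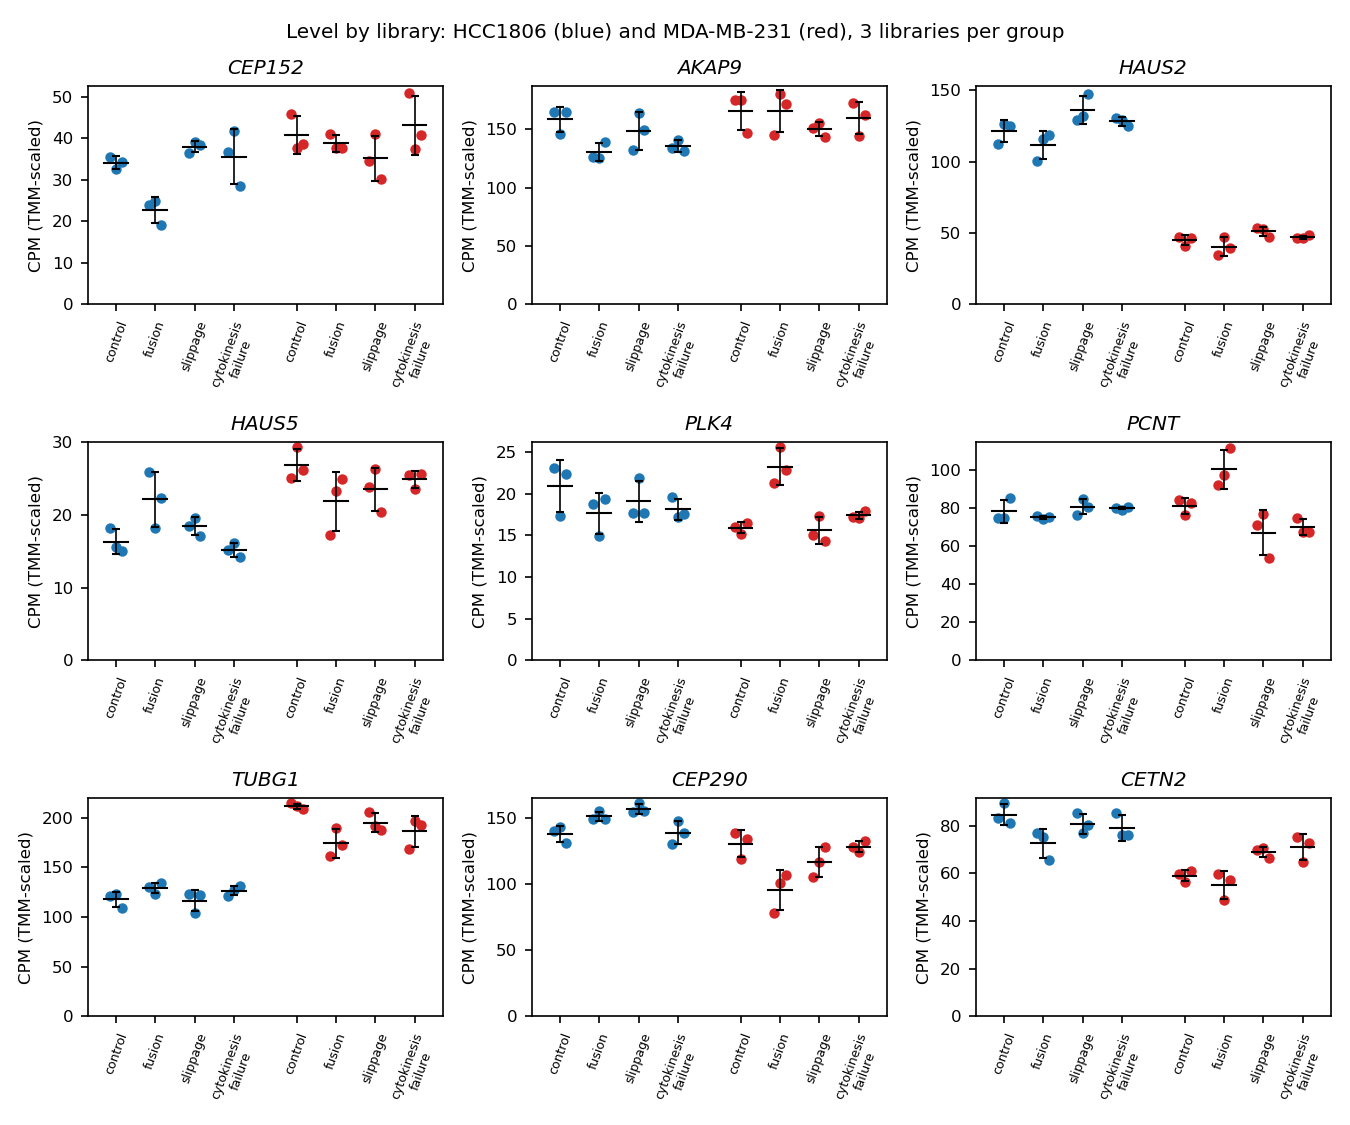
Level in every library (TMM-scaled CPM, linear axes from 0) of 9 members in HCC1806 (blue) and MDA-MB-231 (red), with points for the 3 libraries of each group, a bar for the mean and whiskers for 1 SD. CEP152 is low in the HCC1806 fusion libraries (19.1 to 24.9 CPM), and PLK4 (21.3 to 25.6 CPM) and PCNT (92.2 to 112 CPM) are high in the MDA-MB-231 fusion libraries.

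Of the 8 genes of the centriole wall, lumen and elongation, 0 were called against a control in any population. By unadjusted p under 0.05, 2 of the 8 passed after fusion in HCC1806 (22.9% of all genes), 2 after slippage in MDA-MB-231 (18.8%), 3 after failed cytokinesis in MDA-MB-231 (16.9%) and 0 in the other 3 comparisons (14.4% to 29.5%), and DESeq2 called none of them either. The most distant value was that of POC5, a protein of the centriole lumen, at -0.50 ± 0.17 after failed cytokinesis in MDA-MB-231 (adjusted p = 0.0884, 95% interval -0.85 to -0.16). CETN3 gave 0.46 ± 0.18 after fusion in HCC1806 (adjusted p = 0.0852).

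Differences between doubled populations were seen for CENPJ and CETN2 in MDA-MB-231. CENPJ, which controls the length of the new centriole, stood at 30.1, 32.9 and 38.6 CPM after fusion, 22.0, 27.1 and 25.3 after slippage and 29.8, 19.8 and 26.9 after failed cytokinesis, with 33.3, 30.7 and 30.5 CPM in the control. The fusion libraries lay above those of both other routes, by 0.44 ± 0.13 against slippage (adjusted p = 0.0177) and 0.44 ± 0.14 against failed cytokinesis (adjusted p = 0.0158), and overlapped the control. Without fusion library 3 the adjusted p rose to 0.131 and 0.113, and with DESeq2 to 0.0729 and 0.0733. Leaving out slippage library 1 gave 0.0879 for the first, and leaving out cytokinesis failure library 2 gave 0.201 for the second.

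CETN2, a calcium-binding protein of the distal lumen, had 59.9, 48.7 and 57.3 CPM after fusion, 69.8, 70.7 and 66.7 after slippage and 75.4, 64.9 and 72.7 after failed cytokinesis. All fusion libraries were below all libraries of the other routes, and the control (59.8, 56.4 and 61.0 CPM) overlapped the fusion group. The difference was -0.33 ± 0.09 against slippage (adjusted p = 0.00891) and -0.36 ± 0.09 against failed cytokinesis (adjusted p = 0.0033), and neither passed without fusion library 2 (adjusted p = 0.109 and 0.0526). With DESeq2 the first was at 0.0502. Both capping genes, CCP110 and CEP97, whose products hold the distal end closed, were called in no comparison with a control, with values from -0.17 to 0.09.

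The pericentriolar material showed its changes in PCNT, TUBG1 and AKAP9, while CDK5RAP2 and NEDD1 were called nowhere against a control. PCNT, the large scaffold that anchors the microtubule-nucleating complexes, stood in MDA-MB-231 at 84.3, 76.4 and 82.5 CPM in the control, 92.2, 97.3 and 112 after fusion, 71.0, 76.7 and 53.8 after slippage and 75.0, 67.6 and 67.6 after failed cytokinesis. The fusion libraries were the 3 highest of the 12. PCNT after fusion was higher by 0.31 ± 0.09 than the control (23.7%, adjusted p = 0.0179), by 0.57 ± 0.09 than slippage (adjusted p = 3.67e-05) and by 0.53 ± 0.10 than failed cytokinesis (adjusted p = 8.28e-05). The last 2 held under every alternative run, while the first was lost with DESeq2 (adjusted p = 0.0584), without control library 2 (0.0929) and without fusion library 3 (0.136). The last 2 differences are not rises over the control alone. Means after slippage (67.1 CPM) and failed cytokinesis (70.1 CPM) lay below the control mean (81.0 CPM), without a call in the main fits. PCNT was called against the control after slippage with no filter on low counts, and after failed cytokinesis without both noisier libraries. In HCC1806, PCNT gave values between -0.06 and 0.04, and the fusion effects differed by -0.37 ± 0.12 (adjusted p = 0.0254), a call lost with DESeq2 (0.0834) and without HCC1806 control library 3 or fusion library 2 or MDA-MB-231 control library 2 or fusion library 3 (0.0553 to 0.124).

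TUBG1, the gamma-tubulin gene whose product forms the ring that nucleates microtubules, fell in fused MDA-MB-231 cells. Its control libraries stood at 214, 211 and 209 CPM, its fusion libraries at 161, 189 and 172, its slippage libraries at 205, 192 and 187 and its cytokinesis failure libraries at 168, 197 and 193. All 9 doubled libraries lay below the 3 controls. After fusion it fell by 17.7% (-0.28 ± 0.07 on the log2 scale, adjusted p = 0.00179), and the call held under every alternative run. TUBG1 was also the only member called in the mean of the 3 doubled MDA-MB-231 populations against the control, at -0.19 ± 0.05 (adjusted p = 0.0206, with 6.06% of all genes called and 2.99% lower), a call lost with DESeq2 (adjusted p = 0.0535) and without any 1 of the 3 control libraries (0.0865 to 0.121).

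In HCC1806, TUBG1 gave 0.14 after fusion without a call, and the fusion effects differed between the lines by 0.41 ± 0.10 (adjusted p = 0.00124). TUBG2, a near-identical copy that can share tags with TUBG1, gave -0.43 ± 0.19 after fusion in MDA-MB-231 (adjusted p = 0.111), so the split of tags between the pair is uncertain.

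AKAP9, a scaffold of the centrosome and the Golgi, fell in HCC1806 after fusion and after failed cytokinesis. The control libraries stood at 164, 146 and 164 CPM, the fusion libraries at 126, 125 and 139, the slippage libraries at 132, 164 and 149 and the cytokinesis failure libraries at 134, 141 and 132. Fusion and cytokinesis failure did not overlap the control, and slippage did. The changes were -0.29 ± 0.07 after fusion (adjusted p = 0.00109), which held under every alternative run, and -0.23 ± 0.06 after failed cytokinesis (adjusted p = 0.00573), which was lost with DESeq2 (0.0539) and without control library 1 (0.0532) or 3 (0.0564). AKAP9 was the only member called in the mean of the 3 doubled HCC1806 populations, at -0.21 ± 0.05 (adjusted p = 0.00433, with 9.69% of all genes called and 5.22% lower), and that call was lost without control library 1 (adjusted p = 0.0809) or 3 (0.0849). In MDA-MB-231, AKAP9 gave 0.00 after fusion and -0.06 after failed cytokinesis, and no difference between the lines was called. That of the fusion effects, -0.29 ± 0.11 (adjusted p = 0.0778), was called with no filter on low counts and without HCC1806 control library 2 or MDA-MB-231 fusion library 1.

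Among the appendage, linker and transition zone genes, CEP290, a protein of the ciliary transition zone and the satellites, fell in fused MDA-MB-231 cells. It stood at 139, 119 and 134 CPM in the control, 78.4, 101 and 107 after fusion, 105, 117 and 128 after slippage and 128, 124 and 133 after failed cytokinesis. The fusion libraries lay below all control and cytokinesis failure libraries and overlapped slippage. CEP290 fell by 27.0% against the control (-0.45 ± 0.09 on the log2 scale, adjusted p = 0.000341) and was lower than after failed cytokinesis (-0.43 ± 0.09, adjusted p = 0.000455), and both calls held under every alternative run. The difference from slippage, -0.29 ± 0.09 (adjusted p = 0.0192), was lost without slippage library 3 (0.101), without both noisier libraries (0.0964), without fusion library 1 (0.201) or without slippage library 2 (0.0646).

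CEP290 gave 0.14 after fusion in HCC1806, and the fusion effects differed between the lines by 0.59 ± 0.11 (adjusted p = 2.56e-05), the smallest adjusted p of any member there. The slippage effects also differed, by 0.35 ± 0.10 (adjusted p = 0.0386), a call lost with DESeq2 (0.088) and in 9 of the 12 fits that left out a control or slippage library. The 3′ end of CEP290 is overlapped by C12orf29 on the opposite strand, and the strand setting of the counting is not given in the sources used here, so tags of the pair cannot be told apart. C12orf29 gave -0.01 after fusion in MDA-MB-231 and was not called.

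NIN, which anchors microtubules at the subdistal appendages, differed between routes in MDA-MB-231, at 134, 129 and 144 CPM after fusion, 136, 136 and 141 after slippage and 189, 156 and 156 after failed cytokinesis, with 158, 148 and 157 in the control. Fusion and slippage libraries all lay below those of failed cytokinesis. The differences were -0.29 ± 0.07 for fusion (adjusted p = 0.00171), which held under every alternative run, and -0.27 ± 0.07 for slippage (adjusted p = 0.0207), which was lost with DESeq2 (0.0733) and without cytokinesis failure library 1 or slippage library 1 or 2 (0.0614 to 0.14), and stood at 0.134 without both noisier libraries. ODF2, a component of both kinds of appendage, was higher after fusion than after slippage (0.33 ± 0.11, adjusted p = 0.0319), a call lost with DESeq2 (0.106) and without fusion library 1 or slippage library 2 or 3 (0.0756 to 0.253), and at 0.0562 without both noisier libraries. CEP164, which docks the mother centriole at the membrane, and CEP250, which holds the centriole pair together, were called against no control.

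PCM1, the organiser of the satellites that ferry proteins to the centrosome, rose in fused MDA-MB-231 cells from 193, 190 and 196 CPM to 198, 240 and 232 CPM. The groups did not overlap, with fusion library 1 (198 CPM) close to the highest control library (196 CPM). The change was 0.21 ± 0.06 (adjusted p = 0.0186), lost with DESeq2 (0.0535) and without control library 1 or 2 or fusion library 2 or 3 (0.0554 to 0.164). In HCC1806 it was lower after fusion (99.2, 99.6 and 99.1 CPM) than after failed cytokinesis (111, 125 and 109 CPM) (-0.21 ± 0.07, adjusted p = 0.0218, lost with DESeq2, without cytokinesis failure library 2 and without any 1 of the fusion libraries, at 0.0562 to 0.23). The fusion effects differed between the lines by -0.30 ± 0.10 (adjusted p = 0.0263), a call lost with DESeq2 (0.0623) and without HCC1806 control library 3 or MDA-MB-231 control library 2 or fusion library 2 or 3 (0.0534 to 0.164).

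Augmin adds branches to spindle microtubules. The augmin subunits of the set were called against no control in the main fits, and their calls within a line lay between doubled populations. HAUS5 was called after fusion in HCC1806 when fusion library 2 was left out. Augmin subunits outside the set are described further below. HAUS2 in HCC1806 stood at 101, 116 and 119 CPM after fusion, 129, 132 and 147 after slippage, 131, 129 and 125 after failed cytokinesis and 113, 126 and 125 in the control. The fusion libraries lay below those of both other routes and overlapped the control. The difference was -0.28 ± 0.07 against slippage (adjusted p = 0.00181) and -0.19 ± 0.07 against failed cytokinesis (adjusted p = 0.0307), and both were lost without fusion library 1 (0.0785 and 0.312). The first was also lost without slippage library 3 (0.0549), and the second with DESeq2 (0.151) and without cytokinesis failure library 1 (0.107) or 2 (0.089). In MDA-MB-231 the fusion libraries (34.8, 47.5 and 39.2 CPM) overlapped the slippage libraries (53.3, 52.6 and 47.4 CPM) with a difference of -0.34 ± 0.11 (adjusted p = 0.0227), lost with DESeq2 (0.0978) and without fusion library 1 or 3 or slippage library 1 or 2 (0.0824 to 0.182).

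HAUS5 in HCC1806 was at 25.9, 18.2 and 22.2 CPM after fusion, 15.2, 16.1 and 14.2 after failed cytokinesis, 18.5, 19.6 and 17.1 after slippage and 18.2, 15.6 and 15.1 in the control. It was higher after fusion than after failed cytokinesis by 0.55 ± 0.16 (adjusted p = 0.00715), without overlap, and the call was lost without fusion library 1 (0.104) and with DESeq2 (0.0644). The fusion effects of HAUS5 differed between the lines by 0.72 ± 0.21 (adjusted p = 0.0135), lost with DESeq2 (0.0537) and without fusion library 1 of HCC1806 (0.0829) or of MDA-MB-231 (0.0764). Those of HAUS8 differed by -0.44 ± 0.16 (adjusted p = 0.0488), lost with DESeq2 (0.125), with no filter on low counts (0.0683), with the replicate block (0.0527) and in 10 of the 12 fits that left out 1 control or fusion library. HAUS4 was higher after fusion than after slippage in HCC1806 (0.41 ± 0.12, adjusted p = 0.0193), lost with DESeq2 (0.131) and without fusion library 1 or slippage library 1 or 2 (0.0651 to 0.103), and HAUS6 was called in no comparison within a line. CEP55, which directs the final cut between daughter cells, had values from -0.14 to 0.07 against the controls and no call.

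A joint test of any difference among the 4 populations of a line, which is not a count of the pairwise calls, was also run. It called 6 members in HCC1806 (CEP152, AKAP9, HAUS2, CEP290, HAUS5 and HAUS4), where 26% of all genes were called. In MDA-MB-231 it called 7 (PCNT, CEP290, NIN, CETN2, PLK4, TUBG1 and CENPJ), where 28.1% were. In HCC1806 the call of HAUS4 was lost with DESeq2 (adjusted p = 0.268), with no filter (0.0769), with the replicate block (0.0529) and in 9 of the 12 fits without 1 library (0.0541 to 0.156). That of CEP290 was lost with DESeq2 (0.139) and in 3 of the 12 fits (0.0663 to 0.0733), that of HAUS5 with DESeq2 (0.184) and in 3 (0.0573 to 0.215), and that of HAUS2 with DESeq2 (0.0616) and without fusion library 1 (0.0832). In MDA-MB-231 the call of PLK4 was lost with DESeq2 (0.0603) and without fusion library 2 (0.0884), that of CENPJ with DESeq2 (0.0766) and without fusion library 3 (0.0622), and that of TUBG1 without fusion library 1 (0.0563). Between doubled populations alone, 5 members were called in at least 1 of the 3 pairs in HCC1806 (22.8% of all genes) and 8 in MDA-MB-231 (29.5%). By pair, fusion against slippage gave 3 in HCC1806 (9.23% of all genes) and 7 in MDA-MB-231 (17.1%), and fusion against failed cytokinesis gave 4 (17.9%) and 6 (24.5%). Of the pairs that left out fusion, slippage against failed cytokinesis gave 0 member calls in HCC1806 (6.8% of all genes, with 3 members and 19.1% of all genes at an unadjusted p under 0.05, and 0 members by DESeq2) and 1 in MDA-MB-231 (NIN, lower after slippage, with 3.18% of all genes called and 1.08% lower).

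The effect of fusion differed between the lines for 8 members, where it differed for 12% of all 12563 genes tested in both lines together. It was more positive in HCC1806 for CEP290, TUBG1, SASS6 and HAUS5 (5.48% of all genes) and more negative for PLK4, PCNT, PCM1 and HAUS8 (6.57%), and the calls of CEP290, TUBG1 and PLK4 held under every alternative run. The slippage effect differed for 1 member (CEP290, more positive in HCC1806, with 3.54% of all genes called and 1.66% in that direction). That of failed cytokinesis differed for 0 (6.53% of all genes, with 6 members and 18.3% of all genes at an unadjusted p under 0.05, and 0 members by DESeq2). Each of these differences uses the same control libraries as the comparisons above.

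Of the 33 members, 24 were called between the HCC1806 and MDA-MB-231 controls, where 76.2% of all genes were, 6 higher (38.8% of all genes) and 18 lower (37.4%) in HCC1806. The largest differences among those lower in HCC1806 were POC1A, a centriole wall protein (-1.99 ± 0.11), CETN3 (-1.43 ± 0.16), CEP250 (-1.40 ± 0.10) and HAUS6 (-1.05 ± 0.12). Higher in HCC1806 were HAUS2 (1.43 ± 0.08), SPICE1 (0.78 ± 0.22), CETN2 (0.51 ± 0.08), PLK4 (0.41 ± 0.15), NEDD1 (0.27 ± 0.11) and CCP110 (0.24 ± 0.09). The median over the members was -0.31, against 0.01 over all genes. POC1A stood at 20.8, 19.1 and 17.5 CPM in HCC1806 and at 77.7, 71.0 and 79.1 CPM in MDA-MB-231, and HAUS2 at 113, 126 and 125 against 47.4, 40.9 and 46.3 CPM, with no overlap for either gene. The calls of PLK4, STIL, SASS6, CCP110 and NEDD1 were lost in at least 1 fit without a control library, and those of STIL (adjusted p = 0.0545) and NEDD1 (0.0603) also with DESeq2. The augmin subunits thus did not share a direction: HAUS2 was higher in HCC1806, HAUS4, HAUS5 and HAUS6 were lower, and HAUS8 was not called.

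**Figure D3:**
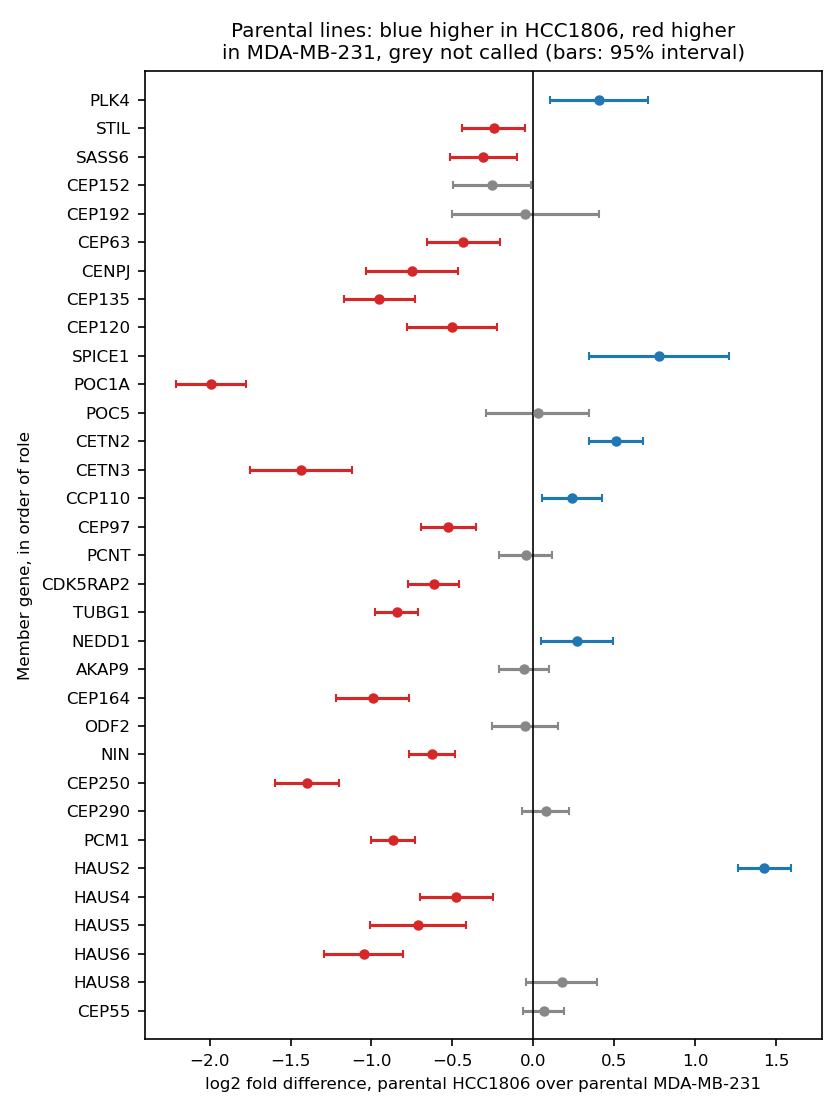
Log2 fold difference of each of the 33 genes between the parental controls (HCC1806 over MDA-MB-231, 3 libraries each), with bars for the 95% interval, blue where called higher in HCC1806, red where called lower and grey where not called. POC1A (-1.99) and HAUS2 (1.43) stand farthest from 0 on each side.

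For some members, the median change of genes nearby on the chromosome had the same direction as that of the member. For CEP152 (15q), 41 tested genes had a RefSeq start within 5 Mb, and in HCC1806 fusion against control their median log2 fold change was -0.22, with 14 called lower and 0 higher, where 5.55% of all genes were called lower. The 74 neighbours of HAUS2, on the same chromosome arm with a window that partly overlaps, had a median of -0.21 there, with 25 called lower and 0 higher. HAUS2 itself was not called there, with means of 112 CPM after fusion and 121 CPM in the control. Around CETN2 (Xq) in MDA-MB-231, the 48 neighbours had a median of -0.20 in fusion against slippage, with 16 lower and 0 higher (8% of all genes lower), and -0.24 in fusion against failed cytokinesis, with 22 lower and 2 higher (11.8% lower).

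Around PLK4 (4q) in MDA-MB-231 fusion, the 12 neighbours had a median of 0.20, with 2 called higher and 0 lower, where 9.34% of all genes were higher. Around SASS6 (1p) the 14 neighbours had -0.14, with 2 lower and 0 higher, where 8.11% of all genes were lower. Neighbours of the other called members lay nearer 0: -0.05 for 119 genes around TUBG1, 0.03 for 37 around PCNT, -0.06 for 9 around CEP290 and 0.01 for 31 around PCM1 in MDA-MB-231 fusion, and -0.02 for 31 around AKAP9 in HCC1806 fusion. Neighbouring genes are not independent of each other. The low-pass genome sequencing of these populations was not analysed here, and the part of copy number in these values was not tested.

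**Figure D4:**
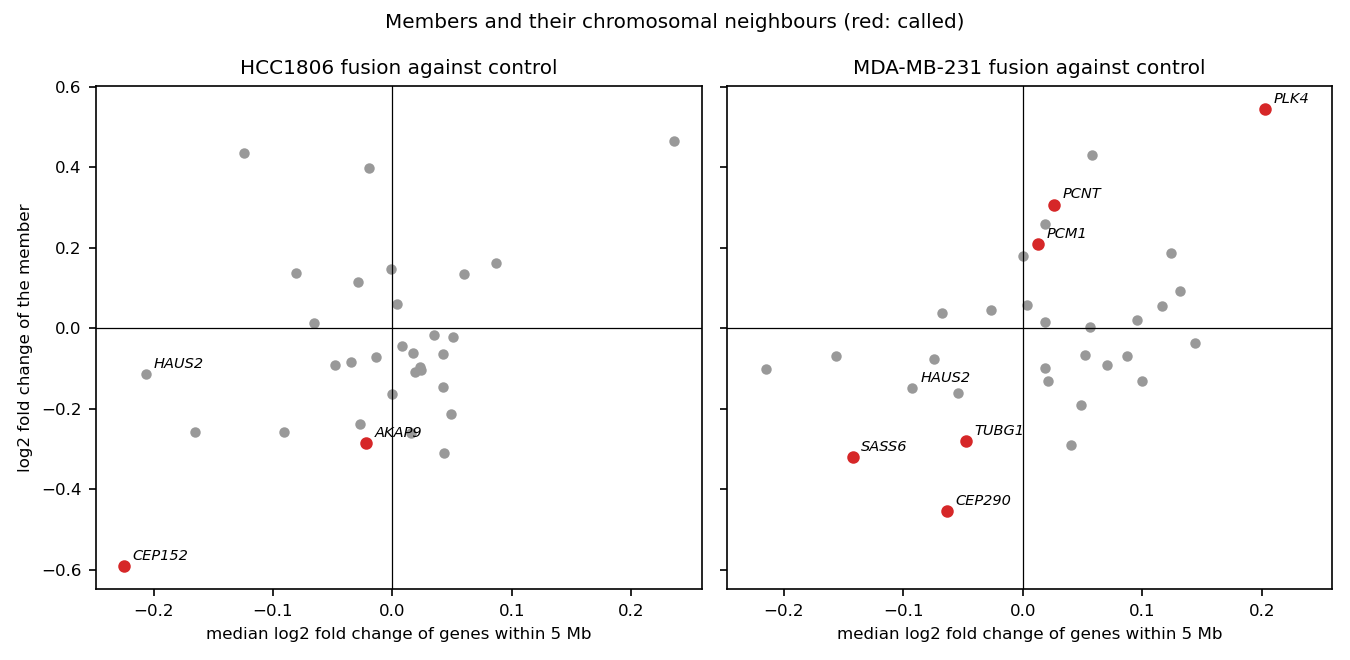
Log2 fold change of a member (vertical axis) against the median log2 fold change of the tested genes within 5 Mb of it (horizontal axis), for fusion against control in HCC1806 (left) and MDA-MB-231 (right), with 1 point per member that has a position and red points for called members. CEP152 lies at the lower left of the HCC1806 panel (-0.59 with neighbours at -0.22) and PLK4 at the upper right of the MDA-MB-231 panel (0.55 with neighbours at 0.20), while TUBG1, PCNT, CEP290 and PCM1 have neighbours near 0.

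Transcripts of several members, PLK4 and CEP55 among them, are known to peak late in the cell cycle, so the make-up of the cultures bears on their level, and in bulk RNA a smaller share of cells in a phase and less RNA per cell cannot be told apart. Of 26 genes of G2 and mitosis, all tested, 7 rose and 1 fell after fusion in HCC1806, 4 rose and 0 fell after slippage, and 15 rose and 1 fell after failed cytokinesis, with medians of 0.12, 0.10 and 0.17. Of all genes in that line, 5.33% were called higher and 5.55% lower after fusion, 1.53% and 1.81% after slippage, and 8.37% and 8.63% after failed cytokinesis. In MDA-MB-231, 5 rose and 1 fell after fusion, 1 rose and 2 fell after slippage, and 1 rose and 2 fell after failed cytokinesis, with medians of 0.04, -0.01 and 0.03. Of all genes there, 9.34% were called higher and 8.11% lower after fusion, 3.27% and 2.91% after slippage, and 2.29% and 2.35% after failed cytokinesis. Of 24 genes of S phase, read against the same shares, 6 rose and 1 fell in MDA-MB-231 after fusion, 0 rose and 4 fell after slippage, and 0 changed after failed cytokinesis (2 at an unadjusted p under 0.05), with medians of -0.01, -0.08 and -0.06. In HCC1806, 2 rose and 0 fell after fusion and again after failed cytokinesis, and 0 changed after slippage (3 at an unadjusted p under 0.05), with medians of 0.05, 0.03 and -0.04 in that order. The part of the cell cycle in the changes of the members was not tested.

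Genes of the centrosome outside the set were read from the same fits, against the shares of all genes given in the preceding paragraph. Their calls were not followed through the alternative runs. The 3 comparisons of a line share the same 3 control libraries, so calls of a gene in all 3 are not independent. Among 13 kinases and regulators of the centrosome cycle, NEK2, the kinase that splits the centriole pair, rose in all 3 doubled HCC1806 populations (0.25 ± 0.07, 0.29 ± 0.07 and 0.31 ± 0.07 after fusion, slippage and failed cytokinesis, adjusted p = 0.012, 0.0089 and 0.00052). PLK2, another polo-like kinase active at the centrosome, fell in all 3 doubled MDA-MB-231 populations (-0.32 ± 0.06, -0.21 ± 0.06 and -0.50 ± 0.06) and in fused HCC1806 cells (-0.36 ± 0.06, adjusted p = 1.5e-06). PLK2 stood at 220 ± 5.02 CPM (SD, n = 3) in the MDA-MB-231 control and 156 ± 3.92 CPM after failed cytokinesis. PLK1 and AURKA, kinases of spindle assembly, and KIFC1, the motor that clusters extra centrosomes, were called in none of the 6 comparisons, and KIFC1 ranged from 0.04 to 0.30. The number called among the 13 is not given here, so that list cannot be set against the shares of all genes.

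The 3 augmin subunits outside the set were tested too. In HCC1806, 2 of them, HAUS1 and HAUS7, rose after fusion (0.35 ± 0.12 and 0.45 ± 0.11), where 5.33% of all genes were called higher. Both also rose after failed cytokinesis (0.36 ± 0.11 and 0.33 ± 0.11), where 8.37% were called higher. None of the 3 was called in MDA-MB-231. Of 9 partners of gamma-tubulin in its ring, TUBGCP2 rose (0.35 ± 0.11) and MZT2B fell (-0.22 ± 0.07) in fused MDA-MB-231 cells. There, 9.34% of all genes were called higher and 8.11% lower. MZT1 fell (-0.30 ± 0.08) in HCC1806 after failed cytokinesis, where 8.63% of all genes were called lower. Of 33 further centriole and appendage genes, 26 were tested in each line. In HCC1806, 1 rose and 0 fell after fusion, 1 rose and 1 fell after slippage (RTTN, -1.11 ± 0.27), and 4 rose and 0 fell after failed cytokinesis, where 5.33%, 1.53% and 8.37% of all genes were called higher and 5.55%, 1.81% and 8.63% lower. CNTROB, a protein of the daughter centriole, rose in all 3 (0.29 ± 0.10, 0.34 ± 0.10 and 0.44 ± 0.09). In MDA-MB-231, 4 rose and 2 fell after fusion, where 9.34% of all genes were called higher and 8.11% lower, and 0 changed after slippage or failed cytokinesis (3 of the 26 at an unadjusted p under 0.05 in each, against 18.8% and 16.9% of all genes). RTTN, needed for full-length centrioles, fell after fusion by 1.22 on the log2 scale (-1.22 ± 0.30), from 8.45 ± 1.73 to 3.61 ± 0.44 CPM, and CEP68, a linker protein, rose by 1.70 ± 0.39, from 1.68 ± 0.40 to 5.47 ± 1.98 CPM, at counts of at most 25 per library.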

How the data were processed

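Per the labels' protocols, RNA of 24 libraries (8 groups of 3) was made into 3′ tag libraries and sequenced as single reads. STAR and Salmon are named in the submitters' processing notes with GRCh38, and their versions, the strand setting and the handling of molecular identifiers are not given in the sources used here. The deposited table of estimated counts per gene, 4.41% of whose values were not whole, was rounded to whole numbers for all tests. The deposited TPM (a level per transcript length) served for ranks of levels only.

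Genes were filtered with filterByExpr, scaled by TMM and fitted with edgeR 4.0.16 (robust quasi-likelihood F-test, R 4.3.3) over the 12 libraries of a line, or over all 24 for differences between lines, with Benjamini-Hochberg adjustment over all 11467 (HCC1806), 11424 (MDA-MB-231) or 12563 (both) genes and a threshold of 0.05. A standard error is the log2 fold change divided by the root of F. Levels are TMM-scaled CPM over all 24 libraries. Alternatives were DESeq2 1.42.0, RLE size factors, no filter on low counts, the replicate number as a block, leaving out each library, and leaving out both noisier MDA-MB-231 libraries. On data simulated for fusion against control, the fit recovered 59 of 100 genes changed by 0.5 and 82 of 100 changed by 1 (log2) among 11356 genes in HCC1806, with 15 false calls (9.62%), and 45 and 83 of 100 among 11288 genes in MDA-MB-231, with 10 false calls (7.25%). Both shares of false calls were above the threshold of 0.05.

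The members and the further gene lists were chosen with earlier results of these data known. Values in every library are given for PLK4 and for the members with the smallest adjusted p in the tests of any difference within a line or of differences between lines, up to 12 in all; from each further list at most 3 called genes per comparison are named, plus KIFC1, PLK1 and AURKA. SASS6, POC1A and CEP192, whose libraries are also given, were added after their values were seen. Positions and promoters are from RefSeq (GRCh38.p14). One gene of the further lists is not reported here.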

Additional observations from a re-analysis of the deposited data

Results flagged for a closer look

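The effect of fusion was of different size or direction in HCC1806 and MDA-MB-231 for 8 members, where 12% of all 12563 genes were called. The test was of the difference itself (log2 fold change in HCC1806 minus that in MDA-MB-231). The differences were -0.81 for PLK4, 0.46 for SASS6, -0.37 for PCNT, 0.41 for TUBG1, 0.59 for CEP290, -0.30 for PCM1, 0.72 for HAUS5 and -0.44 for HAUS8. Only the fusion calls of CEP290, TUBG1 and PLK4 held under every alternative run. For slippage the same test gave a difference of 0.35 for CEP290, where 3.54% of all genes were called. That call was lost with DESeq2 and in 9 of the 12 fits that left out a control or slippage library.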

How the results depend on the processing

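The number of members called moved by over 1.5 times in the settings that follow. With DESeq2 it was 0 for HCC1806 cytokinesis failure, 2 for MDA-MB-231 fusion, 0 for the mean of the doubled MDA-MB-231 populations, 2 for any difference in HCC1806, 2 and 5 between doubled populations of HCC1806 and MDA-MB-231, and 3 and 0 for the fusion and slippage differences between lines. With no filter, MDA-MB-231 slippage gave 1 and the MDA-MB-231 mean 2. Without both noisier MDA-MB-231 libraries, cytokinesis failure gave 2 and the mean 2. With RLE size factors the cytokinesis failure difference between lines gave 1.

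Leaving out 1 library at a time gave, in HCC1806, 2 to 3 members called for fusion, 0 to 0 for slippage, 0 to 1 for cytokinesis failure, 0 to 1 for the mean, 3 to 6 for any difference and 1 to 6 between doubled populations. In MDA-MB-231 it gave 4 to 5 for fusion, 0 to 1 for slippage, 0 to 0 for cytokinesis failure, 0 to 2 for the mean, 6 to 9 for any difference and 6 to 9 between doubled populations. The differences between lines gave 4 to 8 for fusion, 0 to 1 for slippage and 0 to 2 for cytokinesis failure, and the parental comparison 21 to 24.

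The value of PLK4 for MDA-MB-231 slippage against control (-0.02, not called) turned positive without both noisier libraries (0.034), and ranged from -0.11 to 0.032 over the fits without 1 library. Same-numbered libraries did not deviate together (correlations from -0.071 to 0.056 in HCC1806 and -0.152 to 0.059 in MDA-MB-231), so the main fits do not pair them. The labels do not say whether same-numbered libraries were handled together, and these correlations cannot settle it. With the replicate number as a block, the mean of the doubled MDA-MB-231 populations gave 2 members and the cytokinesis failure difference between lines 1, and the calls of HAUS4 for any difference in HCC1806 (adjusted p = 0.0529) and HAUS8 for the fusion difference between lines (0.0527) were lost, while CEP152 was gained for the fusion difference.

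Over all genes, DESeq2 called 648 (HCC1806 fusion), 142 (slippage) and 975 (cytokinesis failure), 517 (mean), 1520 (any) and 1330 (between doubled), against 1247, 382, 1950, 1111, 2981 and 2614 with edgeR. In MDA-MB-231 it called 1197, 343, 302, 348, 1962 and 2132 against 1993, 706, 530, 692, 3214 and 3366, and for the fusion, slippage and cytokinesis failure differences between lines 1007, 284 and 515 against 1513, 445 and 820. Without 1 library, edgeR's count moved by over 1.5 times for HCC1806 slippage (217 to 252 in 3 fits) and mean (721 in 1) and for MDA-MB-231 slippage (370 to 456 in 5), cytokinesis failure (318 to 353 in 4) and mean (283 to 342 in 3). The cause of these changes was not tested. At about 10 CPM, as for CEP192 and SPICE1, intervals reached past 1.5-fold. So did that of CEP290, at a higher level (131 CPM in the MDA-MB-231 control), where the log2 fold change itself was far from 0 (-0.45 after fusion). Reaching past 1.5-fold is thus no measure of width alone. The part of depth in the width of the intervals was not tested.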
